A study of Homo sapiens with 12 samples.

Results

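The immediate early AP-1, EGR1 and NR4A genes are 10 of the 36601 genes measured in KP4 cells, a human line from a pancreatic ductal carcinoma, and their transcripts were followed across 4 treatments. The members are FOS, FOSB, FOSL1, JUN, JUNB, EGR1, NR4A1, NR4A2, NR4A3 and IER3, matched by gene symbol, and all 10 averaged 10 or more normalized read counts over the 12 libraries, the filter that left 15376 genes for testing. They were chosen by name with earlier results of these libraries in view, in which NR4A2 stood out under FK866 and IER3 when FK866 was added to metformin. The values of these comparisons are therefore given as a description with no test, namely FK against DMSO, Met+FK against Met, and the difference between both. The cells, labelled wild type, were treated for 24 h with the vehicle DMSO, with 10 mM metformin (Met), with 5 nM FK866 (FK), or with both (Met+FK), and each treatment had 3 libraries of rRNA-depleted total RNA. Metformin inhibits respiratory complex I, and FK866 inhibits NAMPT, the enzyme that recycles nicotinamide into NAD. All samples come from 1 cell line, and nothing in the labels says that the 3 libraries of a treatment came from separate cultures, so the p-values measure the spread between these libraries.

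Libraries held between 30667735 and 41052203 read pairs. KRT8 and KRT18, keratins of simple epithelia, averaged 2728 and 13170 normalized counts over the 12 libraries, and SOX9, a ductal transcription factor, averaged 4320. The ductal keratin KRT19 averaged 33.7, EPCAM 8.93 and E-cadherin (CDH1) 47.5, whereas the mesenchymal filament gene VIM averaged 103600, so some defining epithelial markers were low in this line. Of the markers of other cell types, the leukocyte genes PTPRC and CD68 averaged 196 and 829, the fibroblast gene COL1A1 139 (52.0 to 307) and the endothelial gene VWF 31.1, while CD3E, DCN, LUM, COL1A2, CDH5 and PECAM1 averaged between 0 and 7.1. The part of these markers in the results was not tested.

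Immediate early genes are transcribed within minutes of a growth factor, stress or calcium signal without new protein synthesis, and their mRNAs are short-lived. FOS family and JUN family proteins dimerize into the transcription factor AP-1. EGR1 is a zinc finger factor, and the NR4A genes encode orphan nuclear receptors that are thought to act without a ligand. IER3 encodes a small protein linked to cell survival. Serum response factor binds the CArG box, and CREB family factors bind the cAMP response element, the 2 kinds of promoter sequence best known for this fast response. A time point of 24 h is far beyond the first wave of induction, and these data cannot tell a maintained level from a later change.

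Promoter windows are shown because several members share the letters TGACGT, the core of the cAMP response element, upstream of their start sites. RefSeq promoter entries (GRCh38.p14) were matched for 7 of the 10 members (NR4A2, FOSL1 and IER3 have none in the table used). In the 250 bases upstream of the start, TGACGT on either strand was found in 4 of the 7 (FOS, FOSB, NR4A3 and EGR1), and in 7.1% of the 35116 windows of the same length over all promoters. The CArG box was found in 1 of the 7 (EGR1, with 2 copies), and in 1.16% of all windows. Only these 250 bases were searched, so the other members may carry the sequence farther upstream. Capitals mark TGACGT or its reverse complement ACGTCA, and in EGR1 also the CArG boxes. The windows are chr14:75278578-75278827 for FOS, chr19:45467746-45467995 for FOSB, chr9:99821635-99821884 for NR4A3 and chr5:138465229-138465478 for EGR1, all on the plus strand and written 5′ to 3′.
FOS: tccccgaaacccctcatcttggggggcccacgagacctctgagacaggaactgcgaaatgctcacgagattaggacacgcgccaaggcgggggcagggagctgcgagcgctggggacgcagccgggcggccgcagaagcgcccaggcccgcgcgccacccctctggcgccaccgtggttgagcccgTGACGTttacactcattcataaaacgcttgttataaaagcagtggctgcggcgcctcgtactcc
FOSB: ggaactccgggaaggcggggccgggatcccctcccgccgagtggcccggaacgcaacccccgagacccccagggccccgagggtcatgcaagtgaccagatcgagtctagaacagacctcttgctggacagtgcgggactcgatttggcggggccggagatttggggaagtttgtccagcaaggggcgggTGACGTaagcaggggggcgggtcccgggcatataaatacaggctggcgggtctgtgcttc
NR4A3: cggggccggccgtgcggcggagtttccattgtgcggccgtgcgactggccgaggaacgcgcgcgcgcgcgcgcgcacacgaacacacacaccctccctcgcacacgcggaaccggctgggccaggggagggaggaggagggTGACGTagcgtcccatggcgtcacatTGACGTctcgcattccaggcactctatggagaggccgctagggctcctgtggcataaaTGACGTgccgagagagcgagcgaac
EGR1: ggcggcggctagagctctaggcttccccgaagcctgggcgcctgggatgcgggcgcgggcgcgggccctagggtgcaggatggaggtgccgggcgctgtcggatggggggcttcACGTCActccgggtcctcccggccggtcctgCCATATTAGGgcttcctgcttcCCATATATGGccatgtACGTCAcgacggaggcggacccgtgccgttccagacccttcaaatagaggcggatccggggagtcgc
Counted back from the start site, the match lies at bases 64 to 59 in FOS and 60 to 55 in FOSB. NR4A3 has 3 matches, beginning 109, 83 and 25 bases upstream. Its window ends at 99821884, past the start of the gene in the deposited table (99821855). The match at 25 bases therefore lies within the deposited gene. EGR1 has 2 matches on the minus strand, at 136 to 131 and 67 to 62 bases, and its CArG boxes begin 105 and 83 bases upstream. The TATA box letters TATAAA were found in FOS, FOSB and JUNB and in 10.7% of all windows. None of the 7 held the full palindrome TGACGTCA (1.65% of all windows), the AP-1 site TGANTCA (6.57%) or the NR4A monomer site AAAGGTCA (1.05%) in this window. The motifs were picked after the sequences had been read, and a match is a description of letters, not a binding site.

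In the coordinates of the deposited table (hg38), FOS spans chr14:75278826-75282230, FOSB chr19:45467995-45475179, NR4A3 chr9:99821855-99866891, EGR1 chr5:138465479-138469303, NR4A1 chr12:52022832-52059507 and JUNB chr19:12791486-12793315 on the plus strand. FOSL1 (chr11:65892049-65900573), JUN (chr1:58780791-58784047), NR4A2 (chr2:156324437-156342348) and IER3 (chr6:30743199-30744548) lie on the minus strand. The members differed widely in level. In DMSO, per kilobase of transcript, FOSL1 averaged 4778 normalized counts, JUN 2654, JUNB 917, EGR1 605 and IER3 461. Far lower came FOS at 79.3 ± 8.78 (SD, n = 3), NR4A1 at 48.5 ± 5.43, FOSB at 46.4 ± 6.37, NR4A2 at 28.4 ± 7.07 and NR4A3 at 6.47 ± 0.644. The levels of NR4A1 and FOSB do not differ beyond their spread. FOSL1, which lacks the C-terminal activation domain of FOS, stood at the top of the order in every treatment, followed by JUN.

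**Figure D1:**
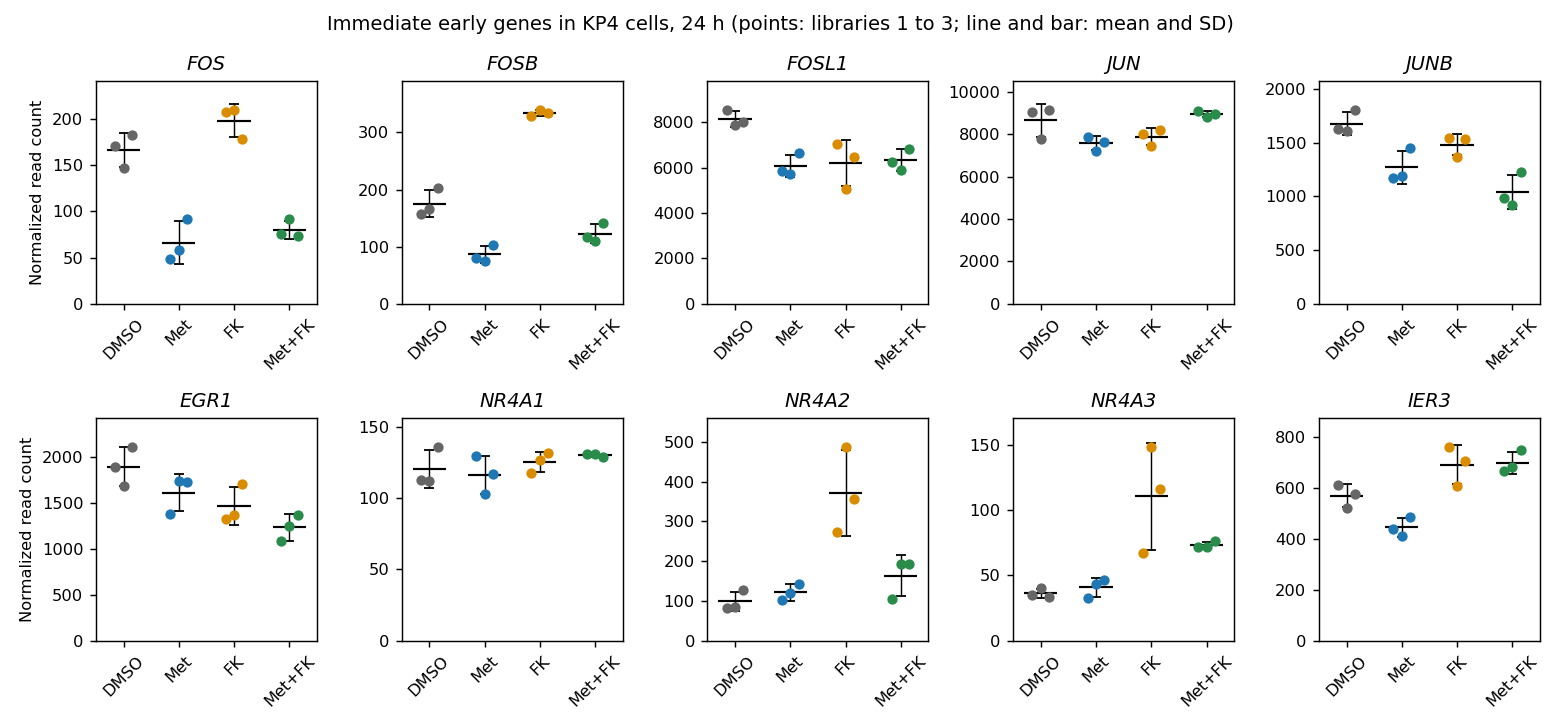
Normalized read count (y axis, linear, from 0) of each of the 10 members in the 12 libraries, by treatment (x axis), with 1 point per library and a line and bar for the mean and SD of 3 libraries. FOS and FOSB sit lower in all metformin-treated libraries than in all others, and NR4A2 reaches 273 to 487 in FK against at most 193 elsewhere.

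FOS and FOSB fell under metformin alone, and both were lower in Met+FK than in FK. FOS, the founding AP-1 subunit, had 171, 147 and 183 normalized counts in DMSO replicates 1 to 3, and 48.1, 58.6 and 92.3 in Met. It had 208, 209.7 and 178 in FK, and 75.3, 91.4 and 73.2 in Met+FK. Every library with metformin was below every library without it, while FK overlapped DMSO and Met+FK overlapped Met. FOS was 2.58-fold lower in Met than in DMSO (log2 fold change -1.37, SE 0.20, limma adjusted p = 5.38e-05) and 2.47-fold lower in Met+FK than in FK (-1.30, adjusted p = 9.61e-05). In RNA from whole plates, fewer cells carrying a transcript and less of it per cell cannot be told apart. Log2 fold changes are on the scale log2(normalized count + 1), and the standard error of a gene is the same in every pairwise comparison, since the 12 libraries share 1 estimate of spread.

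FOSB, a FOS paralog with a strong activation domain, had 157, 167 and 203 normalized counts in DMSO and 80.5, 75.6 and 103 in Met. FK held 328, 339 and 334, and Met+FK held 117, 110.4 and 141. No pair of treatments overlapped, and the order from high to low was FK, DMSO, Met+FK and Met. FOSB was 2.02-fold lower in Met than in DMSO (log2 fold change -1.02, SE 0.15, adjusted p = 5.35e-05). It was 1.42-fold lower in Met+FK than in DMSO (-0.51, adjusted p = 0.00911), a call lost without DMSO replicate 3 (adjusted p = 0.0524). Met+FK was 2.72-fold below FK for FOSB (-1.44). That value is given with no test, because it rests on the high FK libraries of a comparison used in choosing the members. The gene overlaps ERCC1, a DNA repair gene on the opposite strand, and the strand setting of the counting is not given in the sources used here. ERCC1 averaged 5578 normalized counts in DMSO and 3924 in Met, a log2 fold change of -0.51 (adjusted p = 0.000189), and 4487 in FK, where FOSB was higher. The part of ERCC1 reads in the FOSB values was not tested.

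Among the genes tested, 12.8% rose and 10.2% fell past both thresholds (adjusted p under 0.05 and fold change over 1.5) in Met against DMSO. The balance depended on scaling, with 1964 genes higher and 1566 lower as deposited and 2835 and 1025 with every library scaled to the same total. Of the 10 members, 2 fell past both, FOS and FOSB, and 0 rose, also at an unadjusted p under 0.05 and with edgeR or DESeq2. Over all genes tested, edgeR gave 2142 higher and 1382 lower, and DESeq2 1922 and 1497. The median log2 fold change of the members was -0.30, against 0.01 over all genes tested. FOSL1, JUN and JUNB fell by less than the fold threshold, with adjusted p-values under 0.05. IER3 was also lower by less than that threshold, given with no test because the Met libraries belong to the comparison that chose it. All comparisons against DMSO share its 3 libraries.

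FOSL1, the main FOS family member here, held 8527, 7879 and 7992 normalized counts in DMSO and 5826, 5728 and 6632 in Met. FK held 7016, 5069 and 6475, and Met+FK held 6262, 5888 and 6830.3. All 9 drug-treated libraries were below the 3 DMSO libraries, and the drug treatments overlapped each other. FOSL1 fell 1.34-fold in Met (log2 fold change -0.43, SE 0.10, adjusted p = 0.00351) and 1.29-fold in Met+FK against DMSO (-0.36, adjusted p = 0.00911). Between Met+FK and FK the difference was 0.04 (adjusted p = 0.772). With the trend of the values with GC content and length removed, the Met difference was -0.26 for FOSL1, -0.25 for JUNB and -0.19 for IER3.

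JUN, the principal partner of FOS in AP-1, was the most abundant member after FOSL1 per kilobase. It held 7773 to 9134 normalized counts in DMSO, 7215 to 7861 in Met, 7451 to 8206 in FK and 8812 to 9089 in Met+FK, so Met, FK and Met+FK each overlapped DMSO. The Met difference from DMSO was -0.19 (SE 0.07, adjusted p = 0.0428). This call was lost in 8 of 12 alternatives and without any 1 of DMSO replicates 1 and 3 and Met replicates 1 to 3 (highest adjusted p = 0.447). Met+FK differed from DMSO by 0.06 (adjusted p = 0.552), and from FK by 0.18 (adjusted p = 0.0552). The difference from FK came under 0.05 with equal totals (0.0124), edgeR (0.0402), the replicate block (0.00904) and the block with the GC and length trend removed (0.0322). That from DMSO did so with the trend removed (0.15, adjusted p = 0.027), and with the block as well (0.0138).

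JUNB, a JUN paralog that often restrains JUN, held 1626, 1605 and 1804 normalized counts in DMSO and 1173, 1188 and 1448 in Met. FK held 1546, 1368 and 1534, and Met+FK held 986, 921 and 1224. DMSO was above every other library, and Met+FK was below FK but overlapped Met. JUNB fell 1.33-fold in Met (log2 fold change -0.41, SE 0.11, adjusted p = 0.00728), 1.62-fold in Met+FK against DMSO (-0.69, adjusted p = 0.000128) and 1.43-fold in Met+FK against FK (-0.51, adjusted p = 0.00191). The last difference was -0.64 with the GC and length trend removed (limma adjusted p = 2.91e-07), past the fold threshold. With a library left out it lay between -0.64 and -0.43. HOOK2, which overlaps JUNB on the opposite strand, averaged 198 normalized counts in DMSO, 244 in Met, 167 in FK and 239 in Met+FK. Its difference was 0.30 in Met against DMSO (adjusted p = 0.0378), 0.27 in Met+FK against DMSO (adjusted p = 0.0544) and 0.52 in Met+FK against FK (adjusted p = 0.00194), and its part in the JUNB values was not tested.

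**Figure D2:**
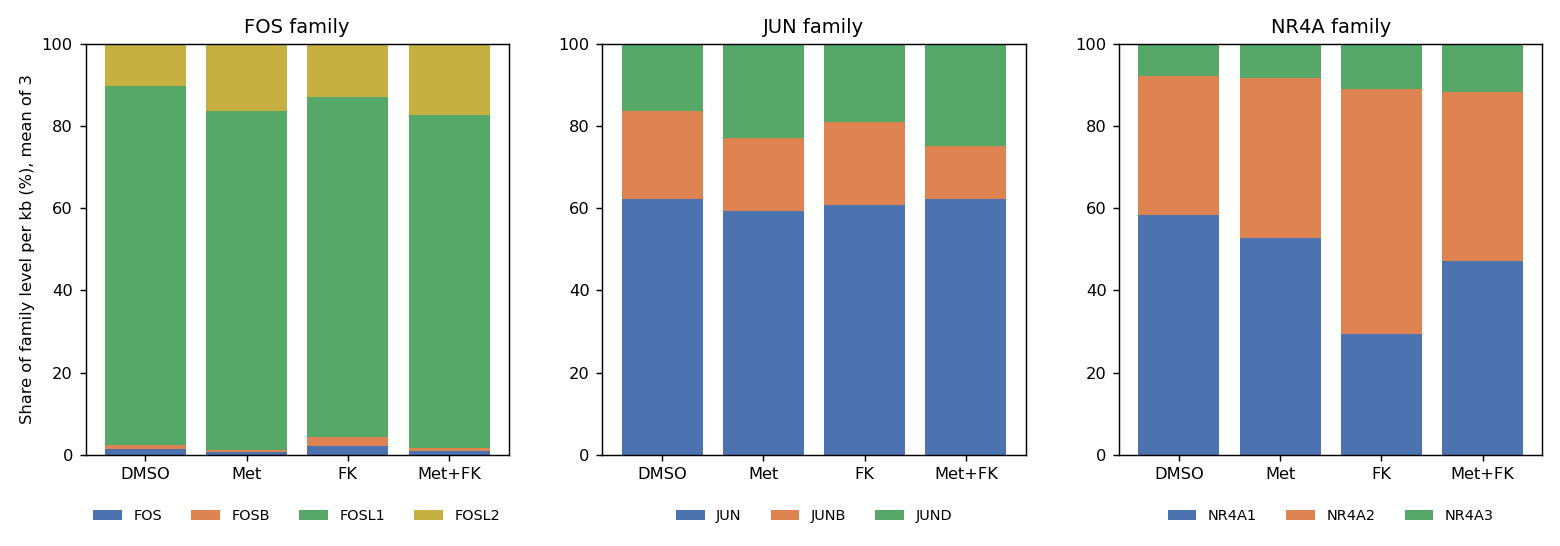
Share of each member in the summed normalized counts per kilobase of its family (y axis, percent) in the 4 treatments, with FOSL2 and JUND, which are outside the 10 genes, completing the FOS and JUN families. FOSL1 holds 81.2% to 87.5% of the FOS family in every treatment, and NR4A2 holds 59.8% of the NR4A family in FK.

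Within each family the shares differed between treatments. FOSL1 held 87.5% ± 1.11 (SD, n = 3) of FOS family RNA per kilobase in DMSO and 82.4% ± 0.0723 in Met, while FOSL2 went from 10.1% ± 0.885 to 16.4% ± 0.158. FOS and FOSB stayed minor throughout, with FOS at 1.45% in DMSO, 0.72% in Met, 2.19% in FK and 0.837% in Met+FK. In the JUN family, JUNB held 21.5% ± 1.19 in DMSO and 12.9% ± 1.59 in Met+FK, and JUND, the subunit least dependent on signals, held 16.3% ± 0.607 and 24.8% ± 0.197. JUN itself held between 59.3% and 62.3% in all 4 treatments. These shares are descriptions and were not tested.

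EGR1 held 1891, 1687 and 2114 normalized counts in DMSO and 1379, 1737 and 1728 in Met. FK held 1321, 1371 and 1703, and Met+FK held 1083, 1253 and 1369. Met+FK was below every DMSO and Met library but overlapped FK. EGR1 fell 1.54-fold in Met+FK against DMSO (log2 fold change -0.62, SE 0.13, adjusted p = 0.000831), just past the fold threshold. The differences in Met against DMSO (-0.23, adjusted p = 0.131) and in Met+FK against FK (-0.24, adjusted p = 0.134) did not pass. EGR1 came under 0.05 in Met against DMSO with the replicate block (0.0214), and in Met+FK against FK with the block (0.0203), with the GC and length trend removed (-0.30, 0.0173) and with both (0.00087). With every library scaled to the same total, with the GC and length trend removed, or without DMSO replicate 3 or Met+FK replicate 1, EGR1 stayed under an adjusted p of 0.05 in Met+FK against DMSO but not over the fold threshold.

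In Met+FK against DMSO, which shares its DMSO libraries with the FK comparison, 13.7% of the genes tested rose and 11.3% fell past both thresholds (2110 and 1745 genes, against 2630 and 1396 with equal totals). Of the 10 members, 3 fell (FOS, JUNB and EGR1), and FOS was 2.08-fold lower (log2 fold change -1.05, adjusted p = 0.000435). NR4A2 and NR4A3 were past both thresholds on the higher side. That is a description with no test. Both were higher in FK than in DMSO, and these DMSO libraries belong to that comparison, used in choosing the members. The median over the members was -0.15, against 0.01 over all genes tested. For Met+FK against FK, which shares its FK libraries, 9.27% rose and 9.29% fell. FOS was past both thresholds on the lower side, and 0 members on the higher side. FOSB and NR4A2 also lay past them on the lower side. Both were high in FK, in a comparison used in choosing the members, so their place there is a description with no test. At an unadjusted p under 0.05, 1 member was higher there, and the share over all genes was not counted at that level. EdgeR and DESeq2 each gave 0 members higher and 4 lower, a count that includes FOSB and NR4A2 and adds NR4A3. Over all 15376 genes tested, edgeR gave 1476 higher and 1414 lower, and DESeq2 1402 and 1401. The members' median was -0.38, against -0.01 over all genes tested. It includes FOSB, NR4A2 and NR4A3, which were high in FK, so it is also a description.

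**Figure D3:**
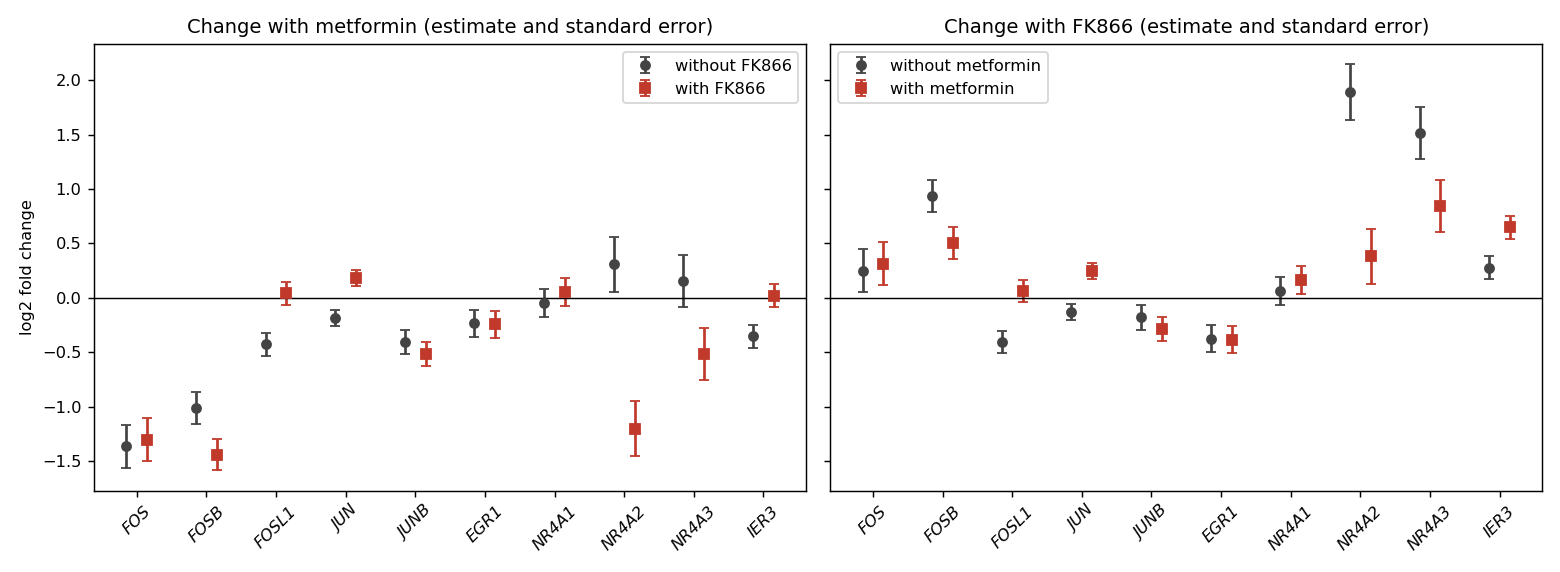
Log2 fold change (y axis, with bars of 1 SE) of each of the 10 members (x axis) with metformin, without and with FK866 (left), and with FK866, without and with metformin (right). FOS and FOSB lie at -1.37 and -1.02 in Met against DMSO, and NR4A2 lies at 1.89 in FK against DMSO and at -1.20 in Met+FK against FK.

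NR4A2, the NR4A receptor studied most in dopamine neurons, held 83.1, 85.7 and 127 normalized counts in DMSO and 101, 119 and 143 in Met. FK held 273, 487 and 356, and Met+FK held 103, 193 and 192. The FK libraries stood above all 9 others, and Met+FK overlapped both DMSO and Met. FK against DMSO was a log2 fold change of 1.89 (SE 0.25), or 3.71-fold, and is one of the values that chose the members. The difference between Met+FK and FK was -1.20, or 2.30-fold lower, and is also given with no test, because it rests on the same high FK libraries for which NR4A2 was chosen. Met alone differed from DMSO by 0.31. NR4A2 was 1.61-fold higher in Met+FK than in DMSO (0.69, and 0.54 to 0.99 with a library left out). Both differences are given with no test, since the DMSO libraries belong to the comparison that chose NR4A2.

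NR4A3 was the least abundant member, with 34.6, 40.4 and 33.8 normalized counts in DMSO and 32.4, 43.5 and 46.7 in Met. FK held 67.0, 149 and 116, and Met+FK held 72.1, 71.7 and 76.1. Every library with FK866 was above every library without it, and Met+FK lay within the range of FK. NR4A3 was 1.51 (SE 0.24) higher in FK than in DMSO on the log2 scale, or 2.85-fold. It was 0.9995 higher on the log2 scale in Met+FK than in DMSO, and the difference between Met+FK and FK was -0.51. Both are given with no test, because they rest on the DMSO or FK libraries of a comparison used in choosing the members. The difference from FK was -0.59 with edgeR, -0.60 with DESeq2 and -0.55 with the GC and length trend removed. FK replicate 1 was the lowest and FK replicate 2 the highest library of that treatment for both NR4A2 and NR4A3. Without FK replicate 1 the difference between Met+FK and FK was -0.83 for NR4A3, and without FK replicate 2 it was -0.26.

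NR4A1, the NR4A receptor best known from T cells and apoptosis, held between 103 and 136 normalized counts over all 12 libraries, and all treatments overlapped. Its differences were -0.05 in Met against DMSO (SE 0.13, adjusted p = 0.77), 0.12 in Met+FK against DMSO (adjusted p = 0.473) and 0.05 in Met+FK against FK (adjusted p = 0.77), which does not show that the levels were equal. As a share of NR4A RNA per kilobase, NR4A1 went from 58.4% ± 1.97 (SD, n = 3) in DMSO to 29.3% ± 5.56 in FK, and NR4A2 from 33.7% ± 3.30 to 59.8% ± 4.04.

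IER3 held 612, 520.2 and 578 normalized counts in DMSO and 440.0, 412 and 484 in Met. FK held 762, 609 and 705, and Met+FK held 666, 680.4 and 747. Met was below every other library, FK overlapped DMSO by 1 library, and FK and Met+FK overlapped. IER3 was 1.28-fold lower in Met than in DMSO (log2 fold change -0.36, SE 0.11), and the difference was -0.23 with every library scaled to the same total. In Met+FK it was 1.23-fold higher than in DMSO (0.29), and against FK the difference was 0.02. These differences are given with no test, because they rest on the Met or Met+FK libraries of the comparison for which IER3 was chosen.

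In FK against DMSO, 2.73% of the genes tested were higher and 0.754% lower past both thresholds. These counts, 420 and 116 genes, became 163 and 36 with the GC and length trend removed, and with a library left out they ranged from 84 (without DMSO replicate 1) to 1065 (without DMSO replicate 2) higher and from 10 (without DMSO replicate 1) to 198 (without FK replicate 1) lower. Of the 10 members 3 were higher (FOSB, NR4A2 and NR4A3) and 0 lower, a description since this comparison was used in choosing them. FOSB was 0.93 (SE 0.15) higher on the log2 scale, FOS 0.25 (SE 0.20), IER3 0.28 (SE 0.11) and NR4A1 0.06 higher, and FOSL1 0.41, EGR1 0.38, JUNB 0.18 and JUN 0.13 lower. With the GC and length trend removed, FOSL1 was 0.20 lower, IER3 0.49 higher and NR4A1 0.26 higher, and JUN (0.02) and JUNB (0.04) turned to the higher side. When FK866 was added to metformin, 0.052% of the genes tested were higher and 0.0065% lower past both thresholds in Met+FK against Met, and 1 member was higher, IER3 at 0.65 (SE 0.11) or 1.57-fold. NR4A3 was 0.84 (SE 0.24), FOSB 0.51, NR4A2 0.38, FOS 0.31, JUN 0.24, NR4A1 0.17 and FOSL1 0.06 higher there, and EGR1 0.38 and JUNB 0.29 lower. Without Met replicate 3, FOS was 0.58 higher.

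The log2 fold change of Met+FK against Met minus that of FK against DMSO was, among the members, farthest from 0 for NR4A2, at -1.51 (SE 0.36) on the log2 scale. NR4A3 was at -0.67 (SE 0.34) and FOSB at -0.43 (SE 0.21). FOSL1 (0.47, SE 0.15), JUN (0.37, SE 0.10) and IER3 (0.37, SE 0.15) were on the other side, and FOS was at 0.06, EGR1 at -0.01, JUNB at -0.11 and NR4A1 at 0.10. With the GC and length trend removed, FOSL1 moved to 0.22, JUN to 0.19, IER3 to 0.13, JUNB to -0.39, FOSB to -0.62, EGR1 to -0.18, NR4A1 to -0.15 and FOS to -0.09, while NR4A2 was at -1.50 and NR4A3 at -0.58. Leaving out FK replicate 1 moved NR4A3 to -0.99, leaving out FK replicate 2 moved FOSL1 to 0.33, and leaving out Met replicate 3 moved FOS to 0.32. These values are a description, with no test. GC content of the members lies between 47.0% (NR4A3) and 64.9% (JUNB), against a median of 48.5% over the genes tested. Libraries differed in how values depended on GC content, from 0.196 on the log2 scale per 10 points of GC in DMSO replicate 1 to -0.245 in FK replicate 2.

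Of 11 other AP-1 subunits and partners tested, 3 rose past both thresholds in Met against DMSO and 0 fell, against 12.8% and 10.2% of all genes tested. ATF3, a stress-induced AP-1 partner, rose by 2.62 on the log2 scale (adjusted p = 2.04e-11), from a mean of 636 normalized counts to 3921. JDP2, a JUN-binding repressor, rose by 1.68 (adjusted p = 1.99e-08) and ATF2 by 0.62 (adjusted p = 0.00269). Adding metformin to FK raised ATF3 (1.95), JDP2 (1.65) and ATF7 (0.61), where 9.27% of all genes tested rose. In FK against DMSO, with 2.73% of all genes tested higher, only ATF3 was past both thresholds (1.33).

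Of 37 other immediate early genes tested, 8 rose and 7 fell past both thresholds in Met against DMSO, against 12.8% and 10.2% of all genes tested. The largest rises were NFIL3, a bZIP repressor (1.81), the antiproliferative gene BTG1 (1.64) and the DNA damage gene GADD45A (1.47). The largest falls were ARC (-1.97, with means of 29.4 and 6.65 normalized counts), ID3 (-1.16) and the cytokine signalling inhibitor SOCS3 (-1.10). With FK866 present (Met+FK against FK), 10 rose and 7 fell, against 9.27% and 9.29% of all genes tested. NFIL3 (1.86), GADD45A (1.81) and BTG1 (1.79) were at the top, and ARC (-2.48) and the EGR1 paralogs EGR3 (-1.40) and EGR2 (-1.30) at the bottom. In FK against DMSO, 3 were higher, TIPARP (1.04), EGR2 (0.93) and KLF4 (0.65), and 0 lower, against 2.73% and 0.754% of all genes tested.

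Past both thresholds, 12.8% of all genes tested rose and 10.2% fell in Met against DMSO. The shares were 9.27% and 9.29% in Met+FK against FK, and 2.73% and 0.754% in FK against DMSO. No list was tested against these shares. Of 22 upstream factors, which carry signals to these promoters, 3 rose past both in Met against DMSO, MEF2A (0.88), ELK4 (0.84) and MEF2C (0.62), and the kinase gene RPS6KA1 fell (-0.74). Between FK and Met+FK 1 rose, MEF2D (0.78), and in FK against DMSO 1 was higher, MEF2C (0.77). Of 17 tested targets of AP-1 and EGR1, PDGFA rose (0.69) in Met against DMSO and 3 fell, CCND1 (-0.73), MMP10 (-0.71) and CD44 (-0.66). In Met+FK against FK, PDGFA rose (0.78) and 5 fell, led by IL11 (-1.07), TFPI2 (-1.02) and CCND1 (-0.90). In FK against DMSO, IL11 (1.19), TGFA (0.77) and VEGFA (0.63) were higher.

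Likeness of pattern was measured by the root mean square difference of centred log2 values over the 12 libraries. Candidates were 11512 genes outside the members that averaged 100 or more normalized counts, so members were not compared with each other. The genes most like each of the 3 members with the widest range between treatments are named. For FOSB they were THBS1 (0.22), SLC6A6 (0.26) and SLC2A12 (0.27). For NR4A2 they were IGFBP3 (0.36), IL11 (0.38) and EREG (0.40), and for FOS they were HAS3 (0.18), SLC2A12 (0.22) and DPYSL3 (0.23). The values are distances between patterns and carry no test.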

How the data were processed

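RNA-seq covered 12 KP4 libraries in 4 treatments. Per the study's methods and processing notes, the authors trimmed with cutadapt, used STAR for alignment to hg38 and featureCounts for read pairs per gene, and divided the counts by DESeq2 size factors. Annotation and strand setting are not given in the sources used here. The deposited table is a signal of such normalized counts, from which whole read pairs were recovered for 100% of values within 0.01. Columns were matched to treatments and replicates by name.

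Limma-trend (limma 3.58.1, R 4.3.3) was run on log2(normalized count + 1) with a mean for each treatment. The fit held all 12 libraries and 15376 genes averaging 10 or more normalized counts, over which p-values were adjusted by Benjamini-Hochberg. Both thresholds means an adjusted p under 0.05 with a fold change over 1.5. Rose and fell follow the adjusted p. Alternatives were pseudocounts of 0.1 and 10, other filters, scaling to equal totals or TMM, the 6 compared libraries alone, a replicate block, edgeR 4.0.16 and DESeq2 1.42.0 on recovered reads, removal of the GC and length trend, and leaving out each library. The fit was tested on simulated data. Pairing by replicate number was checked by correlating deviations from treatment means. All members are named, and of each other list the 3 largest and 3 smallest changes past both thresholds in the comparisons described. Members and lists were chosen with earlier results of these data known. Lengths and overlapping genes come from GENCODE 44, and promoter windows from RefSeq.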

Additional observations from a re-analysis of the deposited data

How the results depend on the processing

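The number of members past both thresholds stayed at 2 in Met against DMSO under every alternative and with each library left out. It lay between 4 and 5 in Met+FK against DMSO and between 3 and 4 in Met+FK against FK. These last counts can include NR4A2, NR4A3 and, against FK, FOSB, which were high in FK in a comparison used in choosing the members. In FK against DMSO the number stayed at 3, a description that carries no support, since this comparison was used in choosing the members. The single member of Met+FK against Met became 2 with the GC and length trend removed and the replicate block, and 0 to 1 with a library left out (0 without Met replicate 1 or 2 or any Met+FK library). The members' median difference between both FK866 effects, 0.03, became -0.16 with the GC and length trend removed, with or without the replicate block, and the cause was not tested. Scaling to the same total moved the median of all genes in Met against DMSO from 0.01 to 0.13. With the replicate block, 2 members passed both thresholds in Met against DMSO, 5 in Met+FK against DMSO and 3 in Met+FK against FK. Over all 15376 genes tested, the block gave 2029 higher and 1613 lower, 2154 and 1778, and 1478 and 1471, in that order. The member counts were 3 in FK against DMSO (540 and 163 over all genes) and 1 in Met+FK against Met (18 and 7). Both are descriptions only, since these comparisons were used in choosing the members. With the alternatives other than leaving out a library, 1531 to 2835 genes were higher and 1025 to 1683 lower in Met against DMSO. The ranges were 1762 to 2630 and 1396 to 1904 in Met+FK against DMSO, and 1215 to 1707 and 1175 to 1515 in Met+FK against FK. Under the block EGR1 also came under an adjusted p of 0.05 in Met against DMSO (0.0214) and in Met+FK against FK (0.0203). In the latter, JUN did so on the higher side (0.00904). Same-numbered libraries did not all deviate together in the 3 tested comparisons (correlations from 0.013 to 0.33), and 4, 3 and 5 of 6 libraries correlated best with their own number in Met against DMSO, Met+FK against DMSO and Met+FK against FK. In FK against DMSO and Met+FK against Met every pair's correlation was over 0.1 (0.17 to 0.42), and the pairing is read from the values. With the GC trend removed, the correlations were 0.131 to 0.171 in FK against DMSO and 0.0738 to 0.159 in Met+FK against Met, so in the latter not every pair stayed over 0.1. Over all genes, FK against DMSO gave 420 higher and 116 lower, and 89 and 23 in its 6 libraries alone. Met+FK against Met gave 8 higher and 1 lower, 2 to 8 and 0 to 1 with a library left out, and 6 to 18 and 1 to 18 under the other alternatives. The difference between both FK866 effects could not be fitted with only 6 libraries.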
